A study of Mus musculus with 21 samples.

Results

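The genes described here are 10 genes of DNA damage checkpoint signalling, chosen by symbol: Atm, Atr, Nbn, Mdc1, Topbp1, Trp53bp1, Rnf8, Chek1, Chek2 and Trp53. They were not picked by their values, but earlier results of these data were known when they were chosen. All 10 were found once each among the 37620 genes of the RNA-seq table, and all 10 passed the filter on low values, which kept 20795 genes whose average reached 0.1 FPKM (fragments scaled to the length of the transcript and the size of the library). The study mapped the binding sites of PRDM9, the protein that places meiotic recombination hotspots, and used RNA-seq to relate hotspot usage to gene expression. Its RNA came from germ cells enriched by enzymatic digestion of testes of C57BL/6J mice at 12 days post-partum (dpp), and the labels call the cells spermatocytes. The 12 libraries fall under 4 sample numbers (186wt, 343wt, 444wt, 456wt), and each number has 3 libraries. No genotype, treatment or age separated the 4 numbers, so the comparisons below are between 4 preparations of 1 kind of sample. The methods of the study describe RNA from 4 replicates of enriched germ cells, against 12 libraries, so the 3 libraries of a number may be repeats from 1 RNA. The number of animals in a preparation is not stated. P-values between the numbers, from limma and from permutations alike, therefore measure the spread between libraries, which may be technical.

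When DNA breaks or replication stalls, the kinases ATM and ATR are recruited to the lesion. The MRE11-RAD50-NBN complex recruits ATM at breaks, and coated single-stranded DNA recruits ATR, which TOPBP1 activates. Mediator proteins such as MDC1 and 53BP1, and the ubiquitin ligase RNF8, assemble on the chromatin around a break. The signal passes to the kinases CHK2 and CHK1 and to p53, which halt the cell cycle. In meiosis the same proteins answer to programmed breaks made for recombination, and in spermatocytes ATR, TOPBP1 and MDC1 also act in the silencing of unsynapsed chromosomes such as the X and Y.

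The libraries held an estimated 13.02 to 18.16 M (mega) fragments, with a median of 15.08 M, and a checkpoint gene was covered by between about 175 fragments (Chek2 in its lowest library) and about 10266 (Trp53bp1 in its highest). The label was checked against marker lists. All 10 early meiosis markers (among them Sycp1, Sycp3 and Dmc1) and all 8 spermatogonial markers were expressed. Of 8 markers of pachytene cells and spermatids, 3 (Acrv1, Pgk2 and Prm2) were below 0.1 FPKM, and Prm2 was at 0 in every library. The other 5 passed that level, led by Ldhc at 7.18 ± 4.83 FPKM and Piwil1 at 6.50 ± 2.34 FPKM (SD, n = 4 sample numbers), with Tnp1 at 0.960 FPKM, Prm1 at 0.163 FPKM and Tnp2 at 0.126 FPKM. Somatic cells were also represented. The 7 Sertoli cell markers in the table summed to between 2280.5 and 4106.5 FPKM, above the sums of the early meiosis markers (275.6 to 458.4 FPKM). These sums cover different genes and do not compare amounts of cells. Clu alone was at 1844 FPKM, and the median marker was at 105.6 FPKM for Sertoli cells and 38.5 FPKM for early meiosis.

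The marker sums differed between the sample numbers. The early meiosis sum averaged 352.1 FPKM in 186wt, 278.4 in 343wt, 454.7 in 444wt and 321.4 in 456wt. The spermatogonial sum was 653.6, 690.4, 943.5 and 818.5 FPKM in the same order. The sum of the pachytene and spermatid markers was 13.1, 14.0, 8.60 and 24.5 FPKM, lowest in 444wt and highest in 456wt. Ldhc (1.84 FPKM in 444wt and 13.5 in 456wt) and Piwil1 (4.22 and 9.72) made up most of it. The low markers Tnp1, Tnp2 and Prm1 were instead highest in 444wt, at 1.78, 0.23 and 0.44 FPKM. The Sertoli sum was lower in 444wt (2285 FPKM) and 456wt (2454 FPKM) than in 186wt (3966 FPKM) and 343wt (4097 FPKM). The sums of the 6 Leydig, 6 peritubular myoid, 5 endothelial and 5 macrophage markers ranged over the numbers from 16.1 to 110.5, 406.5 to 1642, 13.4 to 34.2 and 5.02 to 19.99 FPKM. In bulk RNA, fewer cells of a type and less RNA per cell cannot be told apart, and the part of these differences in the results below was not tested.

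**Figure D1:**
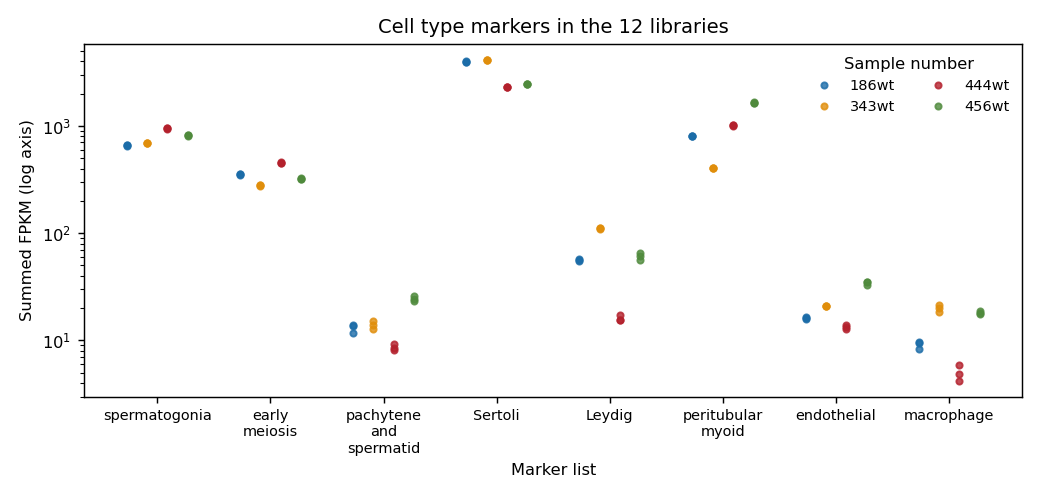
Summed FPKM of the marker genes of each cell type (log axis) in each of the 12 libraries, coloured by sample number. The early meiosis sum lay between 275.6 and 458.4 FPKM and was highest in the 3 libraries of 444wt. In these the pachytene and spermatid, Sertoli, Leydig, endothelial and macrophage sums were lowest, while the peritubular myoid sum was lowest in 343wt.

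Of the 10 genes, 4 started within 1 kb of a gene on the opposite strand that was read away from them, a head-to-head arrangement present for 9.33% of 16578 expressed protein-coding genes. Atm faced Npat, a regulator of histone gene transcription, across 306 bases. Topbp1 faced 1300017J02Rik across 132 bases, Chek2 faced Hscb, an iron-sulphur cluster co-chaperone, across 239 bases, and Trp53 faced Wrap53, which is needed for telomerase localization, across 103 bases. The levels of the pairs are compared further on. For Atm the stretch between the annotated starts was cut to 300 of its 306 bases. The sequences of these stretches are shown because both genes of a pair start at their uncut edges. They were read from NCBI build 37 of the mouse genome on the strand of the checkpoint gene, at chr9:53344846-53345145 (the 300 bases nearest to Atm), chr9:103207413-103207544, chr5:111268797-111269035 and chr11:69393758-69393860. Capitals mark matches on either strand to the letters of the CCAAT box (CCAAT), the GC box (GGGCGG) and the E2F-type motifs TTTCGCGC, TTTGGCGC and TTTCCCGC.
Atm: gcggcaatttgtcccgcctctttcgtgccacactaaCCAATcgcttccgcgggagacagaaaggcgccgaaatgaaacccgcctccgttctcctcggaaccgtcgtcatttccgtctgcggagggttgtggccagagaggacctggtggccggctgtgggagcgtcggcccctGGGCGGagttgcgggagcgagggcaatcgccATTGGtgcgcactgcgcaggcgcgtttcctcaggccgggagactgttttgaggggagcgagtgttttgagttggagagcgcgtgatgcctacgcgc
Topbp1: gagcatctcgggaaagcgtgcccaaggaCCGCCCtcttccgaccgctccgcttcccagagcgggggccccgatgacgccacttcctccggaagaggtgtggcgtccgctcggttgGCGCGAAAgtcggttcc
Chek2: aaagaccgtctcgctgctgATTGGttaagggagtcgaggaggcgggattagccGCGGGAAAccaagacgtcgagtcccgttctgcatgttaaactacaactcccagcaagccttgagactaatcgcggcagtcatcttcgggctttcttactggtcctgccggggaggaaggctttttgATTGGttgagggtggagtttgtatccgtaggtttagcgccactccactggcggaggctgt
Trp53: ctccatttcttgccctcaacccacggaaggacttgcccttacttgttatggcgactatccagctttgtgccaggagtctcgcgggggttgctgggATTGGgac
The CCAAT letters occurred 2 times before Atm, 2 times before Chek2 and 1 time before Trp53, and were present on either strand in 39.0%, 34.0% and 20.5% of the upstream windows of the same length of 22380 protein-coding genes. The GGGCGG letters occurred 1 time before Atm (40.9% of windows of that length) and 1 time before Topbp1 (34.2%). TTTCGCGC stood before Topbp1, 17 bases from its start, and in 0.156% of windows of that length, and TTTCCCGC stood before Chek2 and in 1.04% of windows. No match overlapped another, and TTTGGCGC was in none of the 4 sequences. These are matches of letters and not measured binding sites.

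All 10 genes were expressed at moderate to high levels, from percentile 53.4 (Chek2) to percentile 93.2 (Trp53bp1) of the expressed genes. Trp53bp1 was highest at 62.3 ± 6.30 FPKM (SD, n = 4 sample numbers, each the mean of 3 libraries), followed by Trp53 at 45.8 ± 2.10 FPKM, Topbp1 at 39.9 ± 3.73 FPKM and Atr at 36.4 ± 7.19 FPKM. Rnf8 (31.5 ± 2.29 FPKM) and Mdc1 (31.2 ± 7.04 FPKM) were next. Chek1 (22.3 ± 5.60 FPKM), Atm (17.99 ± 2.97 FPKM) and Nbn (15.2 ± 1.58 FPKM) were lower, and Chek2 was lowest at 6.45 ± 0.851 FPKM.

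By the count of sample numbers that kept each step, the order was steady at its ends and loose in the middle. Trp53bp1 exceeded Trp53 in all 4 sample numbers, and each step from Mdc1 down through Chek1, Atm and Nbn to Chek2 also held in 4 of 4 (exact sign-flip permutation p = 0.13, the smallest that 4 pairs allow, two-sided). The largest step was the last, where Nbn exceeded Chek2 by 1.24 ± 0.123 on the log2 scale (SD over the 4 numbers). The steps from Trp53 to Topbp1, Topbp1 to Atr and Atr to Rnf8 held in 3 of 4 numbers (exact permutation p = 0.25). Rnf8 was above Mdc1 in 2 of 4 numbers (exact permutation p = 0.875). The genes had been ranked by their means over these same 4 numbers, which favoured the direction of each step. With 4 pairs no step could have passed the test. The p-values therefore decide nothing about the order, and the counts only describe it.

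**Figure D2:**
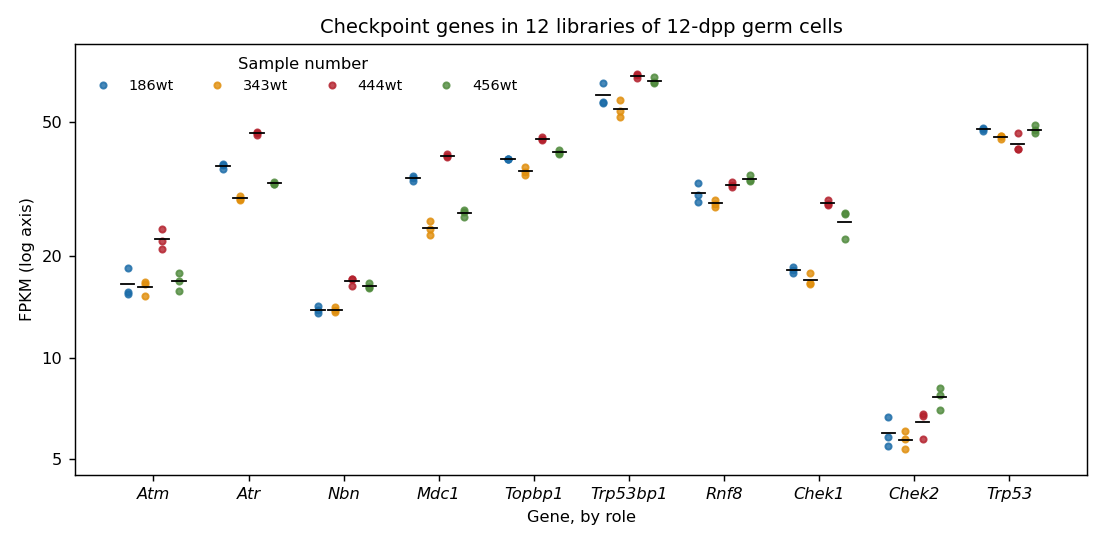
FPKM (log axis) of the 10 checkpoint genes in each library, coloured by sample number, with black bars at the mean of 3 libraries. The genes run from 6.45 FPKM (Chek2) to 62.3 FPKM (Trp53bp1), and in Atm, Atr, Mdc1, Topbp1 and Chek1 the 3 libraries of 444wt lie above the 9 others.

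All 10 genes differed between the 4 sample numbers (limma F-test, Benjamini-Hochberg adjusted p from 5.776e-09 for Atr to 0.02248 for Trp53). Such differences were common, since 58.2% of all genes tested were called, and 81.0% of the 8282 genes whose mean level lay between those of Chek2 and Trp53bp1. The differences were of moderate size. The median range from the lowest to the highest number was 0.370 on the log2(FPKM + 0.1) scale over the 10 genes, 0.343 over genes in the same range of levels and 0.547 over all genes tested. Atr, Mdc1 and Chek1 were the 3 genes with a range above 0.5 (30.2% of all genes were called with such a range).

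The direction was shared by most of the genes. 444wt was the highest number for 7 of 10 (Atm, Atr, Nbn, Mdc1, Topbp1, Trp53bp1 and Chek1), against 21.7% of all genes and 32.6% of genes in the same range of levels that were called and highest there. 343wt was the lowest for 8 of 10, against 19.2% and 25.9%. The exceptions at the top were Rnf8 and Chek2, highest in 456wt (16.3% of all genes), and Trp53, highest in 186wt (9.17%), and no gene was highest in 343wt (11.0%). At the bottom they were Nbn, whose means in 186wt and 343wt were equal to 3 digits with 186wt nominally lowest (16.6% of all genes), and Trp53, lowest in 444wt (14.0%), and no gene was lowest in 456wt (8.43%). In 7 genes (Atm, Atr, Mdc1, Topbp1, Rnf8, Chek1 and Chek2) the 3 libraries of the highest number lay above all 9 others, as in 30.5% of all genes. Scaling by median-of-ratios or to a common sum, or quantile normalization, left 7 genes highest in 444wt, while the number lowest in 343wt ranged from 6 to 9. The shares of all genes highest or lowest in a number were not computed under these scalings. Of the 60 pairs of a gene and 2 sample numbers, 41 differed (limma contrasts, adjusted over all genes and pairs), against 37.2% of pairs over all genes. Between 186wt and 343wt 3 of 10 genes differed (24.1% of all genes) and between 444wt and 456wt 6 of 10 (29.9%). For 186wt against 444wt (41.6% of all genes), 186wt against 456wt (40.5%), 343wt against 444wt (46.3%) and 343wt against 456wt (41.0%) the count was 8 of 10 each. For the F-test the share called was 58.2% of all genes and 81.0% of genes in the same range of levels. For pairs and for separated libraries no share in that range was computed, so those counts stand beside all genes only.

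**Figure D3:**
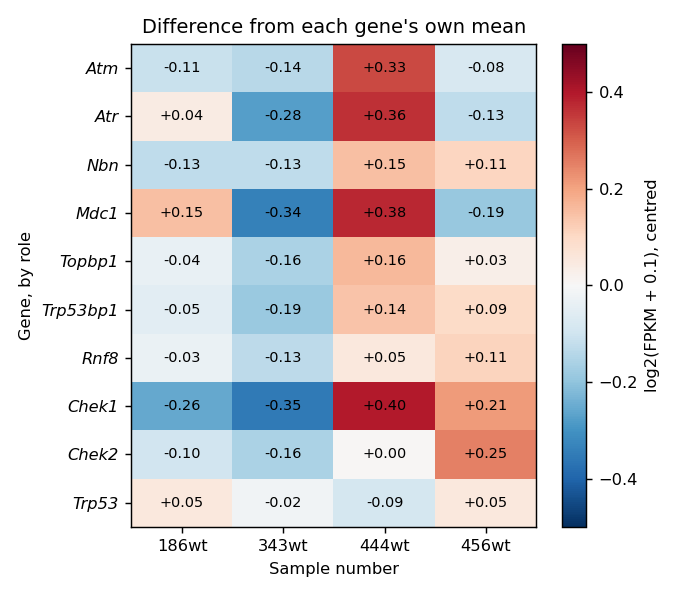
Mean log2(FPKM + 0.1) of each checkpoint gene in each sample number minus the mean of that gene over the 4 numbers, from blue (lower) to red (higher). Values in the 444wt column run from -0.09 for Trp53 to +0.40 for Chek1, and those in the 343wt column are all below 0.

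The apical kinases came first. Atr (chromosome 9, 95758016 to 95852063, plus strand) was at 37.2, 37.6 and 36.1 FPKM in the libraries of 186wt, at 29.5, 30.1 and 29.4 in 343wt, at 46.3, 45.7 and 46.7 in 444wt and at 32.8, 33.1 and 32.7 in 456wt. The 4 sets of libraries did not overlap, and the order was 444wt, 186wt, 456wt, 343wt. How many of all genes separate in this way was not computed. All 6 pairs of numbers differed, the largest being 444wt above 343wt by 1.56-fold (343wt minus 444wt -0.64 on the log2 scale, SE 0.024, limma adjusted p = 2.893e-09). The spread between libraries of a number (coefficient of variation 1.37%) was close to the counting error of about 1.55%. Little expressed genes overlap Atr on the opposite strand, the pseudogene 1700065D16Rik with 187 shared exonic bases at 0.433 FPKM and the lincRNA Gm16794 with 151 at 0.666 FPKM, and a U1 snRNA within Atr averaged 0.0958 FPKM.

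Atm (chromosome 9, 53247254 to 53344845, minus strand) was at 18.5, 15.6 and 15.5 FPKM in 186wt, at 16.7, 16.6 and 15.3 in 343wt, at 22.2, 24.1 and 20.9 in 444wt and at 15.8, 16.9 and 17.8 in 456wt. The libraries of 444wt stood above all others, while those of the other 3 numbers overlapped. 444wt exceeded the others by 0.41 to 0.47 on the log2 scale (SE 0.077, limma adjusted p from 0.0005389 to 0.001313). Without 444wt the remaining 3 numbers did not pass the test (adjusted p = 0.8152). The libraries of a number varied by 7.38%, more than the counting error of about 1.92%.

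Nbn, the subunit of the MRE11 complex that recruits ATM (chromosome 4, 15885072 to 15919736, plus strand), fell into 2 levels. It was at 13.6 to 14.2 FPKM in 186wt and 343wt and at 16.1 to 17.1 FPKM in 444wt and 456wt, with no overlap between these ranges. The lowest and the highest number differed 1.21-fold (F-test adjusted p = 3.145e-05), and 444wt and 456wt did not pass the test against each other (difference 0.04, SE 0.035, adjusted p = 0.3959). The pseudogene Gm11869, within an intron of Nbn, was at 0.158 FPKM.

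Among the mediators, Mdc1, the scaffold that binds phosphorylated H2AX (chromosome 17, 35978460 to 35996615, plus strand), varied most. It was at 33.3, 34.2 and 34.6 FPKM in 186wt, at 25.4, 24.0 and 23.2 in 343wt, at 39.6, 40.2 and 39.4 in 444wt and at 27.1, 26.1 and 27.3 in 456wt. The 4 sets did not overlap and stood in the same order as those of Atr, an order held by 5.19% of the genes called. The means of 444wt and 343wt differed 1.64-fold (-0.71 for 343wt minus 444wt, SE 0.035, adjusted p = 3.07e-08). The summed early meiosis markers had that order too, at 454.7, 352.1, 321.4 and 278.4 FPKM. Of the single markers, Rec8, Smc1b, Tex11 and Mei1 did not keep it and the others did. A link between the markers and Mdc1 was not tested.

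Topbp1, the activator of ATR (chromosome 9, 103207545 to 103252762, plus strand), ranged from 34.8 to 36.7 FPKM in 343wt, 38.7 to 38.9 in 186wt, 40.2 to 41.3 in 456wt and 44.2 to 45.1 in 444wt. These ranges did not overlap, and all 6 pairs differed, although the whole range was 1.25-fold (F-test adjusted p = 3.081e-06). The smallest of the pairs, 186wt against 456wt, was near the threshold (-0.07, SE 0.024, adjusted p = 0.0476).

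Trp53bp1, which encodes the repair mediator 53BP1 (chromosome 2, 121019017 to 121097143, minus strand), lay at 51.7 to 58.0 FPKM in 343wt, 56.9 to 65.3 in 186wt, 65.0 to 68.1 in 456wt and 67.5 to 69.3 in 444wt, so that neighbouring numbers overlapped. The largest difference was 1.26-fold (F-test adjusted p = 0.0007726). Of its annotated exonic bases, 2130 (15.0%) are shared with Tubgcp4 on the opposite strand, which was at 21.6 ± 2.76 FPKM (SD, n = 4). No strand setting was given in the sources used here, so reads of the 2 genes may not be told apart there.

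Rnf8, the ubiquitin ligase that MDC1 recruits (chromosome 17, 29751735 to 29840304, plus strand), varied little, with 28.6 FPKM in 343wt and 33.9 FPKM in 456wt as its extremes (1.18-fold, F-test adjusted p = 0.001891). The libraries of 456wt (33.5 to 34.7 FPKM) stood above all others, while 186wt (29.0 to 32.8 FPKM) overlapped with 343wt (27.9 to 29.4 FPKM) and 444wt (32.0 to 33.2 FPKM). Without 343wt the other 3 numbers did not pass the test (adjusted p = 0.05803). The value is less certain than the others, because 3390 of its exonic bases (41.6%) are shared with Ftsjd2, a gene on the same strand that was at 52.6 ± 4.93 FPKM, and 428 (5.25%) with 1110021J02Rik on the opposite strand.

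The 2 effector kinases differed in level and in pattern. Chek1, which encodes the kinase CHK1 (chromosome 9, 36516067 to 36534650, minus strand), was at 18.2, 17.9 and 18.6 FPKM in 186wt, at 16.7, 17.9 and 16.5 in 343wt, at 28.5, 28.3 and 29.3 in 444wt and at 26.8, 22.4 and 26.7 in 456wt. 444wt and 456wt were high and 186wt and 343wt low, without overlap between these 2 sets. It had the widest range of the 10 genes, 1.68-fold between 444wt and 343wt (-0.75 for 343wt minus 444wt, SE 0.062, limma adjusted p = 2.126e-06). 444wt also exceeded 456wt by 0.19 (SE 0.062, adjusted p = 0.0345), and 186wt and 343wt did not pass the test against each other (0.10, SE 0.062, adjusted p = 0.2543).

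Chek2, which encodes the kinase CHK2 (chromosome 5, 111269036 to 111303152, plus strand), was at 5.49, 5.84 and 6.66 FPKM in 186wt, at 6.05, 5.76 and 5.36 in 343wt, at 6.83, 6.73 and 5.74 in 444wt and at 8.16, 7.77 and 7.02 in 456wt. The libraries of 456wt were above all others, and the other 3 numbers overlapped. 456wt exceeded 343wt by 0.41 on the log2 scale (SE 0.094, adjusted p = 0.004767) and 186wt by 0.35 (SE 0.094, adjusted p = 0.0125), while its difference of 0.25 from 444wt (SE 0.094) had an adjusted p of 0.05994. The F-test (adjusted p = 0.01176) rested on 456wt, since the other 3 numbers alone gave 0.3623, and it was lost without the first library of 456wt (0.05615) and after quantile normalization (0.1135).

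Trp53, which encodes the transcription factor p53 (chromosome 11, 69393861 to 69405375, plus strand), had the smallest range, 1.10-fold. Alone of the checkpoint genes, it was below its own mean in 444wt (-0.09 on the centred log2 scale). In 343wt it was below its mean, as the others were. It was at 46.9, 47.9 and 47.6 FPKM in 186wt, at 44.6, 45.5 and 45.4 in 343wt, at 41.4, 41.6 and 46.2 in 444wt and at 46.2, 47.3 and 48.8 in 456wt. 444wt had the lowest mean, but its library 3 lay above those of 343wt and within the range of 456wt. The pseudogene Trp53-ps was listed at 0 in all 12 libraries. 186wt exceeded 444wt by 0.14 (SE 0.039, adjusted p = 0.01363), and 456wt exceeded 444wt by the same amount (0.14, SE 0.039, adjusted p = 0.01528). The F-test (adjusted p = 0.02248) was lost without the trend in the variance (0.06085), without the first (0.08221) or second (0.08296) library of 444wt, without 444wt (0.06942) and without 186wt (0.05458).

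Ratios within a library do not depend on its scaling, and 8 ratios were tested, chosen by role or neighbourhood after the levels had been seen (exact permutation test of differences in any direction between the 4 numbers, with 15400 arrangements, a smallest possible p of 6.49e-05, and adjustment over the 8). Chek1 to Atr, the effector to its activating kinase, was 0.493 in 186wt, 0.574 in 343wt, 0.620 in 444wt and 0.767 in 456wt. The libraries of the 4 numbers did not overlap (permutation p = 6.49e-05, adjusted 0.000519). Chek2 to Atm was 0.363, 0.354, 0.287 and 0.454 in the same order (permutation p = 0.0106, adjusted 0.0212). Between the effector kinases, Chek1 exceeded Chek2 by 3.05-, 2.98-, 4.47- and 3.30-fold, and the 3 libraries of 444wt (4.17 to 5.11) stood above all others (permutation p = 0.00916, adjusted 0.0212). Between the apical kinases, Atr exceeded Atm by 2.24-, 1.83-, 2.07- and 1.95-fold, which did not pass the test (permutation p = 0.0533, adjusted 0.0609). No ratios of other genes were tested beside the 8, so a difference cannot be called particular to these pairs.

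**Figure D4:**
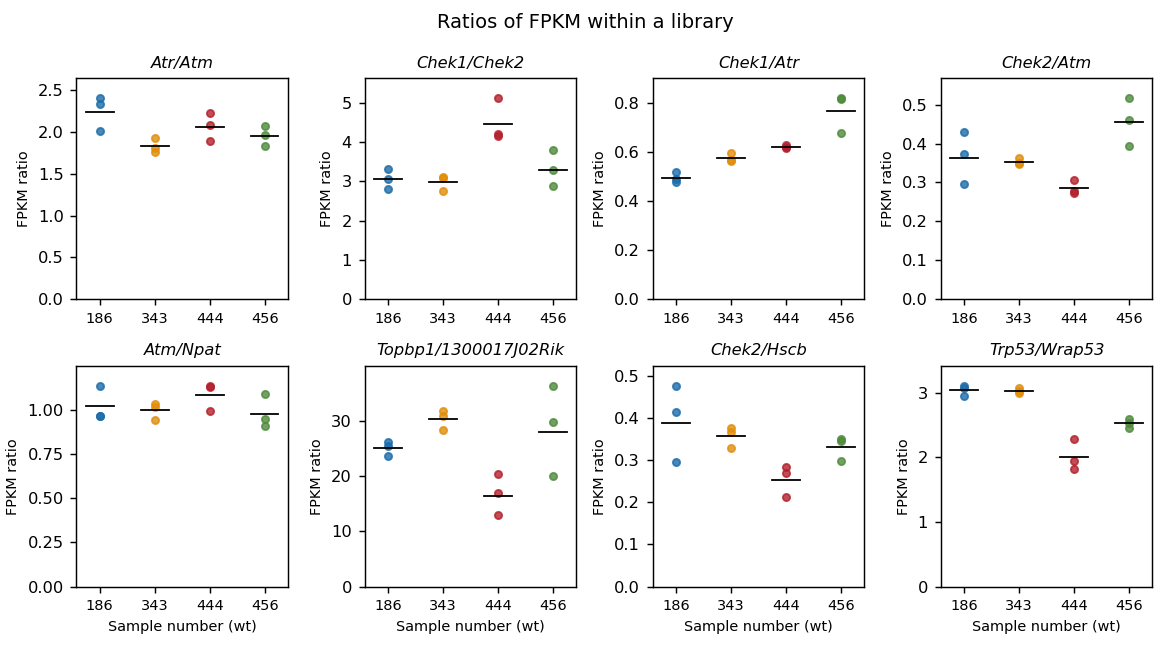
Ratio of the FPKM of 2 genes in each library by sample number, with black bars at the geometric mean of 3 libraries; the upper row pairs kinases of the checkpoint and the lower row pairs a checkpoint gene with its head-to-head neighbour. Chek1/Atr steps from 0.493 in 186wt to 0.767 in 456wt, Atm/Npat stays between 0.905 and 1.13, and Trp53/Wrap53 is near 3 in 186wt and 343wt and 2.01 in 444wt.

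The head-to-head pairs differed in how closely the 2 genes kept to each other. Npat was at 16.2, 16.2, 20.7 and 17.2 FPKM in 186wt, 343wt, 444wt and 456wt, beside 16.5, 16.2, 22.4 and 16.8 FPKM for Atm. Their ratio was between 0.978 and 1.08 in every number and did not pass the test (permutation p = 0.481, adjusted 0.481). Wrap53 was at 15.6, 14.9, 21.5 and 18.8 FPKM, highest in 444wt where Trp53 was lowest. Trp53 to Wrap53 was 3.04 in 186wt, 3.02 in 343wt, 2.01 in 444wt and 2.53 in 456wt (permutation p = 0.000455, adjusted 0.00182), and its libraries overlapped only between 186wt and 343wt.

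For the other pairs, Hscb was at 15.6, 16.1, 25.4 and 23.2 FPKM, above Chek2 in every number. Chek2 to Hscb was lowest in 444wt at 0.253, against 0.330 to 0.387 in the others (permutation p = 0.0341, adjusted 0.0455). 1300017J02Rik was low, at 1.55, 1.18, 2.76 and 1.51 FPKM, so that Topbp1 exceeded it by 16.5-fold in 444wt and by 25- to 30.2-fold in the other numbers (permutation p = 0.0230, adjusted 0.0368).

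The patterns over the 4 numbers were compared by the root mean square distance of the centred log2 values, with 4 points a gene and no test. Among the checkpoint genes the closest pair was Topbp1 and Trp53bp1 (0.0372), Atr and Mdc1 were 0.0709 apart, and the farthest was Chek1 and Trp53 (0.342). Among the 10868 called genes that averaged 1 FPKM or more, the nearest to Atm were A230046K03Rik (distance 0.0201) and Tex12 (0.0204), a component of the synaptonemal complex. Wrn, a RecQ helicase, was the gene second nearest to Topbp1 (0.00695) after Akap11 (0.00532). The other nearest genes were Zfp69 and Acss2 for Atr, Dhx35 and Ap1g1 for Nbn, Myo5a and Gm15249 for Mdc1, Tbc1d8b and Tubgcp6 for Trp53bp1, Rce1 and Glod4 for Rnf8, 4732415M23Rik and Igsf3 for Chek1, Eif2ak3 and 2410004N09Rik for Chek2, and Tm9sf2 and Tbc1d9b for Trp53. Their distances lay between 0.00487 and 0.0259.

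The wider pathway was described with 52 further genes, of which 50 were in the table and all 50 were tested. Of these, 43 (86.0%) differed between the sample numbers, against 58.2% of all genes tested and 81.0% of genes between the levels of Chek2 and Trp53bp1, a share near that of the list. The levels of the list ran from 0.254 to 138.7 FPKM, beyond those of Chek2 and Trp53bp1. The median level of the list was 21.0 FPKM and its median range 0.350, against 0.343 over genes between the levels of Chek2 and Trp53bp1. Of the 50 tested, 32 were called and highest in 444wt (21.7% of all genes tested, 32.6% of genes between those levels), 21 were called and lowest in 186wt (16.6% of all genes) and 18 were called and lowest in 343wt (19.2% of all genes, 25.9% of genes between those levels). After median-of-ratios scaling 40 were called, 25 of them highest in 444wt. The share of all genes called and highest in 444wt was not computed under that scaling.

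Among the partners of the apical kinases 11 of 13 differed (84.6%). The share was 58.2% over all genes tested and 81.0% over genes between the levels of Chek2 and Trp53bp1. The subunits of RPA, which coats single-stranded DNA, were highest in level. Rpa2 was at 59.3, 65.8, 83.9 and 82.6 FPKM in 186wt, 343wt, 444wt and 456wt (F-test adjusted p = 1.864e-08) and Rpa1 at 45.2, 50.8, 61.1 and 62.6 FPKM (adjusted p = 1.24e-05), whereas Rpa3 lay between 21.3 and 23.1 FPKM and did not pass the test (adjusted p = 0.4973). Hus1b, a paralogue of the 9-1-1 clamp subunit HUS1, had the largest range of the group, at 1.63 FPKM in 343wt and 3.05 FPKM in 444wt (adjusted p = 9.281e-05). Of the mediators and chromatin factors 15 of 17 differed (88.2%, against the same 58.2% and 81.0%). Tipin, a replication fork protein that supports CHK1 activation, was at 42.8, 46.8, 66.5 and 52.4 FPKM (adjusted p = 1.252e-06). Parp1 was highest in level at 138.7 ± 12.5 FPKM (SD, n = 4), and Ube2n, the ubiquitin-conjugating partner of RNF8, was at 59.7 ± 5.83 FPKM, and both were highest in 444wt.

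All 4 further members of the protein family of ATM and ATR, 3 kinases and the pseudokinase Trrap, differed. Of all genes tested 58.2% did, and 81.0% of genes between the levels of Chek2 and Trp53bp1. Prkdc, the DNA-dependent protein kinase, was at 7.69, 7.30, 11.1 and 9.14 FPKM (adjusted p = 2.492e-06). Smg1, a kinase of nonsense-mediated decay, was at 24.6, 23.8, 30.6 and 24.6 FPKM, and Mtor at 38.7, 39.0, 47.5 and 40.4 FPKM, both with 444wt above the others. Trrap, a subunit of histone acetyltransferase complexes, was at 131.0, 126.8, 106.4 and 103.1 FPKM and was the one highest in 186wt (adjusted p = 1.389e-06).

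Of the cell cycle targets 7 of 8 differed (87.5%). The share was 58.2% over all genes tested and 81.0% over genes between the levels of Chek2 and Trp53bp1. Plk1, a mitotic kinase, had the largest range, 20.8 FPKM in 186wt against 31.6 FPKM in 456wt (adjusted p = 1.461e-06). Cdk2 (63.2 ± 2.99 FPKM) and Wee1 (28.5 ± 1.69 FPKM) had narrow ranges of 0.16 and 0.19 on the log2 scale and passed the test, and Cdk1 (39.3 ± 1.62 FPKM) did not (adjusted p = 0.4572). Of the p53 family and its regulators 6 of 8 differed (75.0%, against the same 58.2% and 81.0%). The p53 inhibitors Mdm2 (40.6 ± 3.32 FPKM) and Mdm4 (31.2 ± 0.875 FPKM) and the deubiquitinase Usp7 (97.4 ± 3.62 FPKM) had ranges of 0.24, 0.09 and 0.13. Trp63, which guards oocytes and is low in these libraries, was lowest in 343wt (0.287 FPKM) and highest in 456wt (0.817 FPKM) (adjusted p = 0.003601).

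Of 23 genes known as p53 targets, 19 (82.6%) differed, against 58.2% of all genes tested and 81.0% of genes between the levels of Chek2 and Trp53bp1. The levels of the list ran from 0.66 to 77.8 FPKM, beyond those of Chek2 and Trp53bp1, so the 81.0% is not matched to it by level. The median level of the list was 8.30 FPKM, and its median range of 0.526 was close to the 0.547 of all genes. Of the 23, 9 were called and highest in 456wt (16.3% of all genes), 4 in 444wt (21.7%), 4 in 343wt (11.0%) and 2 in 186wt (9.17%). After quantile normalization 16 were called, of which 4 were highest in 456wt and 6 in 343wt. The shares of all genes highest in these numbers were not computed under that normalization. Bax, an effector of apoptosis, was at 69.0, 73.7, 87.2 and 81.1 FPKM in 186wt, 343wt, 444wt and 456wt (adjusted p = 2.66e-05). Sesn2, a stress-induced inhibitor of mTORC1 signalling, had the opposite pattern at 67.8, 69.5, 39.0 and 48.0 FPKM (adjusted p = 2.159e-10). Btg2, which inhibits proliferation, was at 52.6, 45.0, 54.8 and 69.5 FPKM (adjusted p = 5.038e-08). Eda2r, a receptor of the TNF receptor family, was low, at 0.553 FPKM in 343wt and 1.14 FPKM in 456wt (adjusted p = 0.009114).

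**Figure D5:**
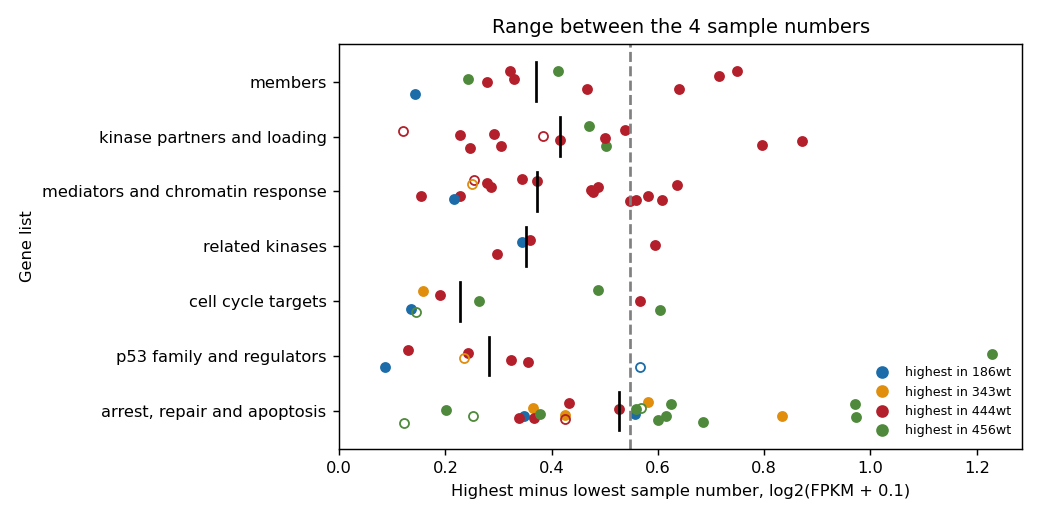
Range between the highest and lowest sample number on the log2(FPKM + 0.1) scale for each gene of the checkpoint genes (members), the 5 pathway groups and the p53 targets, with black bars at the group medians and a dashed line at the median of all genes tested (0.547). Filled points passed the F-test, colours give the highest number, and most filled points of the kinase partners and mediators are highest in 444wt.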

How the data were processed

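RNA-seq of 12 libraries (4 sample numbers, 3 libraries each) was analysed; the other 9 samples of the series (Affinity-seq, ChIP-seq and input) were not analysed here. The authors aligned 100-bp paired reads with BowTie 0.12.9 to the NCBI build 37 transcriptome, dropped reads with 2 or more mismatches, and deposited FPKM computed with RSEM 1.2.8 (fragment length 280 ± 50 bp). A read that matches several transcripts is shared between them by RSEM. Depth was estimated from the steps between low FPKM values of 1529 to 1769 single-transcript genes a library.

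Genes that averaged 0.1 FPKM or more were tested on log2(FPKM + 0.1) with limma 3.58.1 in R 4.3.3 (eBayes with trend): a moderated F-test over the 4 numbers, and contrasts for the 6 pairs, with Benjamini-Hochberg adjustment over all genes (and pairs) at 0.05. FPKM are not counts, so no count model was applied. Levels are averages of the libraries of a number, and each mean ± SD is over 4 numbers. Same-numbered libraries of different numbers deviated independently (r from -0.0648 to 0.128), so no pairing was assumed. Positions and overlaps came from GENCODE M1, which held 37205 of the 37620 identifiers. Scripts were tested on simulated data. Python 3.11.15 (numpy 2.4.6, pandas 2.3.3, matplotlib 3.10.9) served for all else.

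The checkpoint genes and all lists were chosen with earlier results of these data known. Genes named were the 10 checkpoint genes, the 3 highest and the most variable called gene of each list group, the 2 nearest patterns of each checkpoint gene and annotated neighbours within 1 kb. Alternatives were other pseudocounts, filters, scalings, limma without trend, a replicate block, and leaving out each library or number.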

Additional observations from a re-analysis of the deposited data

Results flagged for a closer look

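Values of a sample number were compared with the 3 others by Dixon's criterion (a gap to the nearest value that is large against the whole range, at the 95% level). Of 49 sets of 4 values, 2 met it, where chance gives about 2.5. The level of Atm in 444wt was 22.4 FPKM, apart from 16.2 to 16.8 FPKM in the other numbers. The level of Smg1, a kinase of the same family, in 444wt was 30.6 FPKM, apart from 23.8 to 24.6 FPKM in the others.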

How the results depend on the processing

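All 10 checkpoint genes were called under both other pseudocounts, both other filters, rescaling to TPM or by median-of-ratios factors, and the replicate block, and 9 of 10 after quantile normalization or without trend. Leaving out 1 library gave 9 to 10 calls, and leaving out 1 sample number gave 8 to 9, with the single losses (Atm, Rnf8, Chek2, Trp53) given with each gene. The 43 calls of the pathway list ranged from 33 to 44 over all alternatives, the 19 of the p53 targets from 14 to 19. The 41 pairwise differences became 17 to 22 when a sample number was left out, since 30 pairs then remain. The median level of 31.3 FPKM was 65.1 on the TPM scale, which multiplies every value of a library by a common factor. Among the other named genes, Mdm4, Usp7 and Eda2r lost their call under 1 or more alternatives that kept their highest and lowest numbers, and no named gene reversed in these. The library numbers 1 to 3 did not pair the samples by their correlations, and with them as a replicate block 11774 genes were called against 12107, with 39 pairwise differences of the checkpoint genes; of the named genes only Mdm4 lost its call (adjusted p = 0.05393). Depth limits Chek2 most, with a counting error of about 6.80% a library. Intervals from counting error do not cover differences between preparations, of which there are 4.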
